A study of Homo sapiens with 9 samples.

Results

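The genes described here are 38 cytosolic heat shock proteins and co-chaperones, listed by symbol and matched to 38 of the 58884 Ensembl gene identifiers in the deposited expression files. They were measured by RNA-seq in HK-2, an immortalized line derived from human renal proximal tubule epithelium. The list comprises the HSP70 and HSP110 families, HSP90 with 6 of its co-chaperones, small heat shock proteins, J-domain proteins, BAG proteins, 2 heat shock factors and 4 subunits of the TRiC chaperonin. HSPA9, HSPD1 and HSPE1 are on the list although their proteins work in mitochondria.

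There were 9 libraries, 3 per group. The lactoferrin plus PM2.5 cells were pretreated with lactoferrin, an iron-binding milk glycoprotein, for 6 h at 40 mg/ml; fine particulate matter (PM2.5) followed at 1 mg/ml for 18 h. The PM2.5 cells were labelled as exposed to PM2.5 for 24 h, and the series text gives 1 mg/ml as the PM2.5 dose. Control cells were labelled untreated, while the protocol describes a vehicle control. All groups were grown in keratinocyte serum-free medium with pituitary extract and EGF and were labelled as 24 h samples. Lactoferrin and the shorter PM2.5 time coincide in the pretreated group, so their contributions cannot be told apart, and a group given lactoferrin alone was not analysed here. No label states that replicates came from separate cultures, and p-values here therefore reflect library-to-library spread that could be technical.

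Heat shock proteins keep other proteins folded. In the textbook scheme, HSP70 binds exposed hydrophobic stretches of a client in a cycle set by J-domain proteins, which stimulate its ATPase, and by nucleotide exchange factors of the HSP110 and BAG families. Clients can then pass through the adaptor STIP1 to HSP90, or to the ring-shaped chaperonin TRiC, which folds actin and tubulin. HSF1, the main heat shock transcription factor, is held inactive by chaperones in unstressed cells and binds heat shock elements, inverted repeats of the unit GAA, in the promoters of its targets when misfolded proteins accumulate.

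The upstream sequences of 6 members are shown because they hold heat shock element letters: those of the 3 inducible HSP70 genes, of constitutive HSPA8, and of the other members with a match to 3 units. They are the 250 bases before the transcription start in the RefSeq promoter table (build GRCh38.p14), which had an entry for 34 of the 38 members. Capitals mark the matches to 3 units or, in HSPA1A and HSPA1B, the match to 2 units; further matches to 2 units in HSPA6 and CHORDC1 are in lower case. Each sequence reads 5′ to 3′ on the gene's strand. The positions are chr1:161524290-161524539 on the plus strand for HSPA6, chr6:31815293-31815542 on the plus strand for HSPA1A, chr6:31827488-31827737 on the plus strand for HSPA1B, chr11:123062137-123062386 on the minus strand for HSPA8, chr7:157336754-157337003 on the plus strand for DNAJB6 and chr11:90223050-90223299 on the minus strand for CHORDC1.
HSPA6: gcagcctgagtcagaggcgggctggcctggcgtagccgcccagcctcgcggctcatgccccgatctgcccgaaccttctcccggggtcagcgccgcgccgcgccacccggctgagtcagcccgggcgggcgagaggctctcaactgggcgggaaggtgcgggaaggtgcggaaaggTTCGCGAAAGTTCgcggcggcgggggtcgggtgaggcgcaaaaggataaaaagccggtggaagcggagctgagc
HSPA1A: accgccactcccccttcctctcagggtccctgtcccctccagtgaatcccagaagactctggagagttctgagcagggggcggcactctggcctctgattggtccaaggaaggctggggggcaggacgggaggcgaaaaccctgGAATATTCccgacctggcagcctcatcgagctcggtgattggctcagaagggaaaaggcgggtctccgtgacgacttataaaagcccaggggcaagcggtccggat
HSPA1B: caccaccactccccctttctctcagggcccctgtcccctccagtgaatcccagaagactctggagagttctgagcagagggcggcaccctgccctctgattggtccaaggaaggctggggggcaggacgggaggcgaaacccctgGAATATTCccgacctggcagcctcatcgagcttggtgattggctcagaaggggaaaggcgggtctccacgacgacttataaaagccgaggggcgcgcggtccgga
HSPA8: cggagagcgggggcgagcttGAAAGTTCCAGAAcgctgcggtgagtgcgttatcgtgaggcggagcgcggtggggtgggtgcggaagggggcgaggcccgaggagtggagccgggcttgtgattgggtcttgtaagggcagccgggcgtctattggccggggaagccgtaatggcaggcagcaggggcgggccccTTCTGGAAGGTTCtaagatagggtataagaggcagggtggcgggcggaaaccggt
DNAJB6: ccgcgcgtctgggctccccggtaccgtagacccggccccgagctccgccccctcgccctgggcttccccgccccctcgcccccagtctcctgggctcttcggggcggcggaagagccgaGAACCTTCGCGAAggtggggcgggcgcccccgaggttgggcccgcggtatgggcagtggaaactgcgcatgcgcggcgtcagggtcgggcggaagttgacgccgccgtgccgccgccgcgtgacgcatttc
CHORDC1: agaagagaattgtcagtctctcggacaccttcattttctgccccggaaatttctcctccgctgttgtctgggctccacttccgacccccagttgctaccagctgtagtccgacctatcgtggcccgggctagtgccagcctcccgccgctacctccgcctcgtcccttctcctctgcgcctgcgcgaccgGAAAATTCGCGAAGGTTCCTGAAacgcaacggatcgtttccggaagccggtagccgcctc

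The 3-unit motif, GAANNTTCNNGAA or its reverse complement TTCNNGAANNTTC, occurred in 4 of the 34 members' windows (11.8%), those of HSPA6, HSPA8, DNAJB6 and CHORDC1, and in 0.439% of all 27305 windows of the same length. The 2-unit motif, GAANNTTC or TTCNNGAA, which every 3-unit match also contains, occurred in 11 of 34 (32.4%) and in 11.7% of all windows. The windows of HSPA1A and HSPA1L, which lie on opposite strands, share 241 bases, so that 1 match is counted for both genes. HSPA1A and HSPA1B each held a single 2-unit match, starting 106 and 105 bases before the start, and their windows carried the same base at 235 of 249 aligned positions (94.4%). These matches describe letters only and are not evidence of binding.

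Each library held between 15313451 and 18820465 assigned reads or fragments, a total worked out from the step size of the low values. The first principal component held 54.4% of the variance and put all 3 control libraries at negative values and the other 6 at positive ones. Replicate 1 of the lactoferrin plus PM2.5 group stood apart on the second component (13.6%), and control replicate 3 on the third (8.80%). In replicate 1 of the lactoferrin plus PM2.5 group, the shortest of 4 length classes of genes ran 0.14 above and the longest class 0.14 below the other libraries of the group (median log2 difference). Replicate 3 of that group ran the other way, at -0.14 for the shortest and 0.14 for the longest class, and control replicates 1 and 3 also ran opposite ways, at 0.09 and -0.08 for the shortest class. Of the proximal tubule markers, 2 of 15 passed the expression filter, GGT1 and ALPL. ALPL averaged 0.31 FPKM in lactoferrin plus PM2.5, 0.36 FPKM in PM2.5 and 0.94 FPKM in control. It fell against control in both (log2 differences -0.83 and -0.76). The endocytic receptor genes LRP2 and CUBN did not exceed 0.0142 and 0.0319 FPKM in any library. Simple epithelial genes were abundant, and the 5 markers summed to 320 to 394 FPKM in lactoferrin plus PM2.5, 326 to 332 FPKM in PM2.5 and 392 to 419 FPKM in control libraries. KRT8 averaged 82.4 FPKM in lactoferrin plus PM2.5, 67.1 FPKM in PM2.5 and 103 FPKM in control and fell in both groups against control, while CDH2, at 29.1 FPKM in lactoferrin plus PM2.5 and 56.2 FPKM in control, fell in that comparison (log2 difference -1.004). KRT18 rose in lactoferrin plus PM2.5 against control (log2 difference 0.52). The basal keratin KRT5 was listed at 0 in all 9 libraries and the leukocyte marker PTPRC did not exceed 0.0116 FPKM. Of 5 fibroblast markers, COL3A1 and PDGFRA were at or near 0 and 3 were tested; the list, mostly LUM, summed to 50.6 to 55.0 FPKM in lactoferrin plus PM2.5, 66.1 to 68.0 FPKM in PM2.5 and 47.5 to 54.0 FPKM in control libraries. Its members moved apart: COL1A1 averaged 1.14 FPKM in lactoferrin plus PM2.5, 1.42 FPKM in PM2.5 and 6.77 FPKM in control and fell against control in both (log2 differences -2.18 and -1.95), while LUM and DCN rose in PM2.5 against control (0.54 and 0.48). Of 8 squamous markers 2, SFN and KRT10, were tested, and the list summed to 34.8 to 50.7 FPKM in lactoferrin plus PM2.5, 33.9 to 38.1 FPKM in PM2.5 and 29.4 to 32.1 FPKM in control libraries. The part of these markers in the results was not tested. FPKM, the fragment count of a gene scaled by its exon length and the library total, is a level per gene length, and levels below are in that unit. In bulk RNA, fewer cells expressing a gene and less RNA per cell cannot be told apart.

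PM2.5 exposure was set against control to ask what the particles did to these genes. The stress-inducible HSP70 genes had the highest fold changes of the list, with the HSP90 co-chaperone FKBP4 and the exchange factor BAG3 next. Of the 37 members that passed the filter of at least 0.5 FPKM in at least 3 libraries, 13 rose (35.1%) and 1 fell, by limma with Benjamini-Hochberg adjustment over all 14454 genes tested and a threshold of 0.05. Over all genes tested, 18.7% were higher and 16.4% lower by the same rule. On the scaled values, the PM2.5 libraries all lay above the control libraries for 20 members (54.1%, against 28.2% of all genes) and all below for 3 members (8.11%, against 25.6% of all genes). Fold changes were positive for 31 members (83.8%, against 50.4% of all genes), with a median log2 value of 0.30, against 0.00 for all genes. Fold changes are differences in log2(FPKM + 0.5), which understate the change of genes near the pseudocount.

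Lactoferrin plus PM2.5 was set against PM2.5 to ask what the pretreatment did in exposed cells. HSPA6 was the single member that changed (2.70% of 37), and it was higher. No member was called lower by limma, and 0 members lay below PM2.5 in every library, against 11% of all genes. An unadjusted limma p under 0.05 was reached by 10 members, and the share of all genes reaching it was not worked out. This comparison gave few calls anywhere, with 0.0208% of all genes higher and 0.0277% lower, 7 genes (0.0484%) in total. Yet 35 of the 37 members (94.6%) had a positive fold change, against 51% of all genes, and in 22 members (59.5%) every lactoferrin plus PM2.5 library lay above every PM2.5 library, against 9.45% of all genes. The members' median log2 fold change was 0.22, against 0.00 for all genes. Replicate 1 of the lactoferrin plus PM2.5 group was the highest of its group for 31 of 37 members, against 40.3% of all genes. Without it the count of non-overlapping members was again 22, against 13.1% of all genes, and the median was 0.12. Leaving a library out cannot lower such a count, so the unchanged 22 is no check on that replicate.

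Lactoferrin plus PM2.5 was also set against control. Here 25 members rose (67.6%) and 1, HSPA2, fell, against 20.4% and 18.2% of all genes. The lactoferrin plus PM2.5 libraries lay wholly above control for 28 members (75.7%, against 24.9% of all genes) and wholly below for 1 (2.70%, against 23% of all genes), 33 had a positive fold change (89.2%, against 50.3% of all genes), and the median log2 fold change was 0.50. The 3 comparisons share libraries in pairs, so their values for one gene are not independent. Of the 37 members, 1 was called higher in all 3 comparisons, 12 in both comparisons against control, 12 in lactoferrin plus PM2.5 against control alone, and 10 in none of them. The share of all genes with each pattern was not worked out, so these counts only describe the members. CRYAB and HSPA2 were each called lower in a single comparison. That a gene was called in 1 comparison and not in another does not show that its 2 effects differ.

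**Figure D1:**
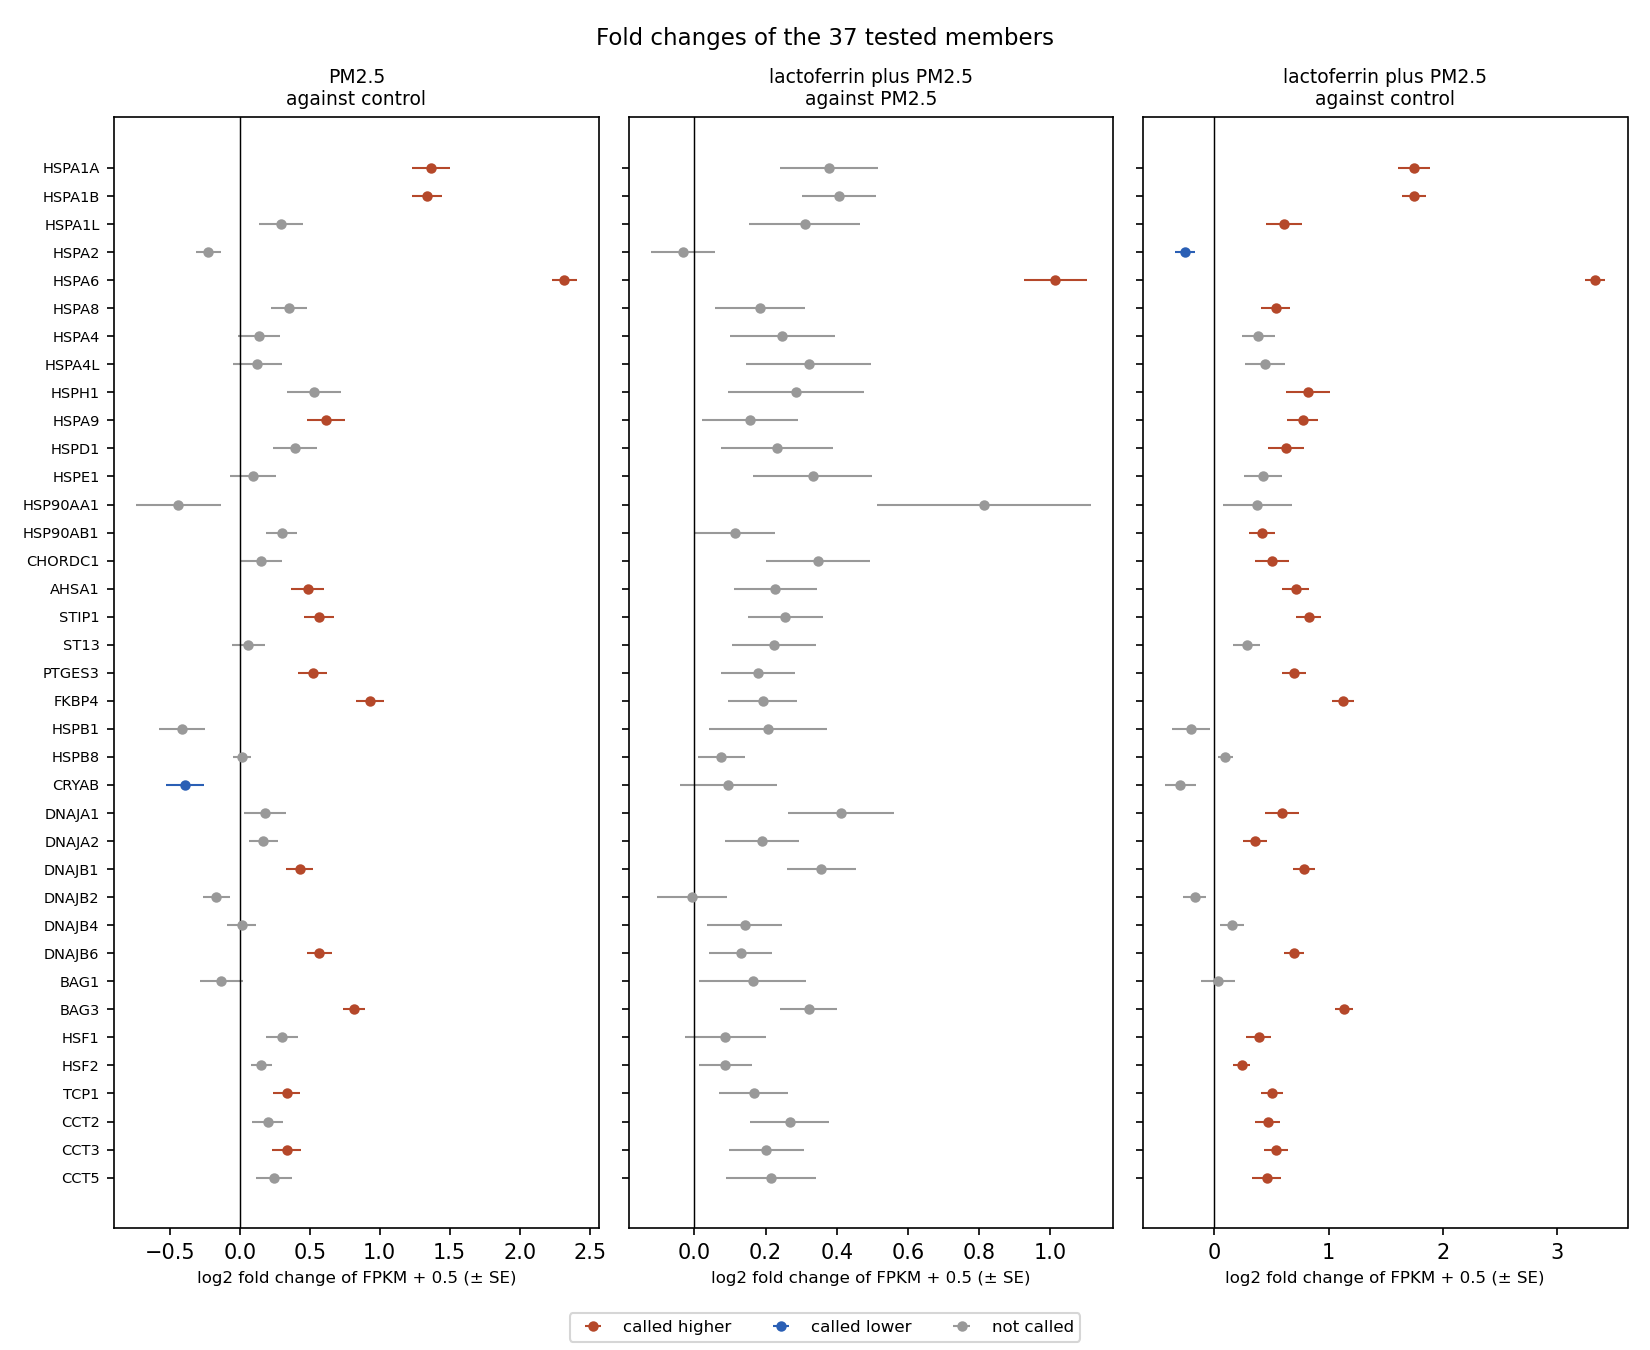
Log2 fold change of FPKM + 0.5 (x axis) for the 37 tested members (rows, ordered by role) in the 3 comparisons, with points at the estimate and whiskers at the standard error from limma. Red points are called higher and blue points called lower at an adjusted p under 0.05; HSPA6 is the single coloured point in the middle panel, and each panel has its own scale.

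HSPA6, the human HSP70 gene known for being almost silent without stress, had 6.23, 6.48 and 6.91 FPKM in lactoferrin plus PM2.5 libraries, 3.03, 2.84 and 3.13 FPKM in PM2.5 libraries, and 0.250, 0.154 and 0.170 FPKM in control libraries. The 3 groups were fully separated. The control values rested on about 9, 6 and 7 fragments, with exact 95% Poisson intervals of 4.12 to 17.1, 2.20 to 13.1 and 2.81 to 14.4 that cover counting error only, while the other libraries held 121 to 278. By the ratio of mean FPKM, HSPA6 was 15.7 times as high in PM2.5 as in control and 2.18 times as high in lactoferrin plus PM2.5 as in PM2.5. On the log2(FPKM + 0.5) scale, PM2.5 stood 2.32 ± 0.088 above control (SE, limma adjusted p = 5.91e-07). Lactoferrin plus PM2.5 stood 1.01 ± 0.088 above PM2.5 (limma adjusted p = 0.00616, and 0.0328 with a pseudocount of 0.1). All 3 control values lay under 0.5 FPKM, so HSPA6 passed the filter only through the treated groups. Its p-value against control is not free of that selection. Limma-voom on rebuilt fragments, which has a smaller offset, gave 3.88 for PM2.5 against control. The call against PM2.5 was lost without PM2.5 replicate 1 (limma adjusted p = 0.0547), PM2.5 replicate 2 (0.0792) or lactoferrin plus PM2.5 replicate 2 (0.0806), with fold changes of 0.98 to 1.03. Its pseudogene neighbour HSPA7 shares 45.5% of the 50-base windows of the HSPA6 transcript. HSPA7 was listed at 0 in 8 libraries and at 0.030 FPKM in the remaining one. Summing the 2 genes kept the call against PM2.5, which values this low could hardly change. The sum does not show how reads from the shared windows were counted.

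HSPA1A and HSPA1B encode the classical heat-inducible HSP70 and are neighbours on chromosome 6. HSPA1A had 92.3, 94.2 and 92.9 FPKM in lactoferrin plus PM2.5, 79.3, 69.0 and 68.1 FPKM in PM2.5, and 23.7, 24.98 and 32.1 FPKM in control libraries. HSPA1B had 57.6, 62.1 and 59.0 FPKM in lactoferrin plus PM2.5, 51.8, 42.0 and 42.2 FPKM in PM2.5, and 16.2, 18.2 and 16.5 FPKM in control libraries. For both genes the order of the groups was the same as for HSPA6, with no overlap between any pair of groups. Against control, HSPA1A rose by a log2 difference of 1.37 ± 0.14 in PM2.5 (SE, limma adjusted p = 0.000108) and of 1.75 ± 0.14 in lactoferrin plus PM2.5 (limma adjusted p = 1.97e-05). Lactoferrin plus PM2.5 against PM2.5 gave 0.38 ± 0.14 for HSPA1A (limma adjusted p = 0.38) and 0.41 ± 0.10 for HSPA1B (limma adjusted p = 0.288), neither called. The transcripts share 72.6% of 50-base windows seen from HSPA1A and the split of reads between them is uncertain. The sum of both avoids that split, but not any loss of reads that match both genes, whose handling is not stated. That sum was 153 ± 3.30 FPKM in lactoferrin plus PM2.5, 117 ± 11.8 FPKM in PM2.5 and 43.9 ± 4.43 FPKM in control (SD, n = 3 each).

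HSPA8, the constitutive HSC70 of every cell, was the most abundant HSP70 gene. It had 573, 567 and 534 FPKM in lactoferrin plus PM2.5, 488, 509 and 486 FPKM in PM2.5, and 341, 356 and 433 FPKM in control libraries. The groups did not overlap, but the rise was called only in lactoferrin plus PM2.5 against control (log2 difference 0.54 ± 0.13, limma adjusted p = 0.0092), and PM2.5 against control gave 0.35 ± 0.13 (limma adjusted p = 0.0567). Without control replicate 3, the highest control library for HSPA8, the PM2.5 difference was called. The sum of HSPA1A and HSPA1B was 27.4 ± 1.16% of HSPA8 FPKM in lactoferrin plus PM2.5, 23.8 ± 2.71% in PM2.5 and 11.7 ± 0.45% in control (SD, n = 3 each). HSPA6 reached 4.28 ± 0.23% of that inducible sum in lactoferrin plus PM2.5, 2.57 ± 0.27% in PM2.5 and 0.44 ± 0.16% in control, so even its highest level was small beside HSPA1A and HSPA1B.

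The remaining members of the family are known mainly from testis. HSPA2 was the one HSP70 gene that was lower against control, at 6.32, 6.46 and 5.59 FPKM in lactoferrin plus PM2.5, 6.18, 5.93 and 6.84 FPKM in PM2.5, and 7.25, 7.08 and 7.31 FPKM in control libraries. Its fall in lactoferrin plus PM2.5 against control, a log2 difference of -0.26 ± 0.090 (limma adjusted p = 0.0481), was just inside the threshold and was lost without scaling and under limma-voom. HSPA1L, between 0.547 and 1.75 FPKM, rose in lactoferrin plus PM2.5 against control by a log2 difference of 0.61 ± 0.16 (limma adjusted p = 0.0138). Across the family, 3 of 6 genes rose in PM2.5 relative to control, 5 of 6 in lactoferrin plus PM2.5 relative to control, and 1 of 6 in lactoferrin plus PM2.5 relative to PM2.5, against 18.7%, 20.4% and 0.0208% of all genes in that order.

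**Figure D2:**
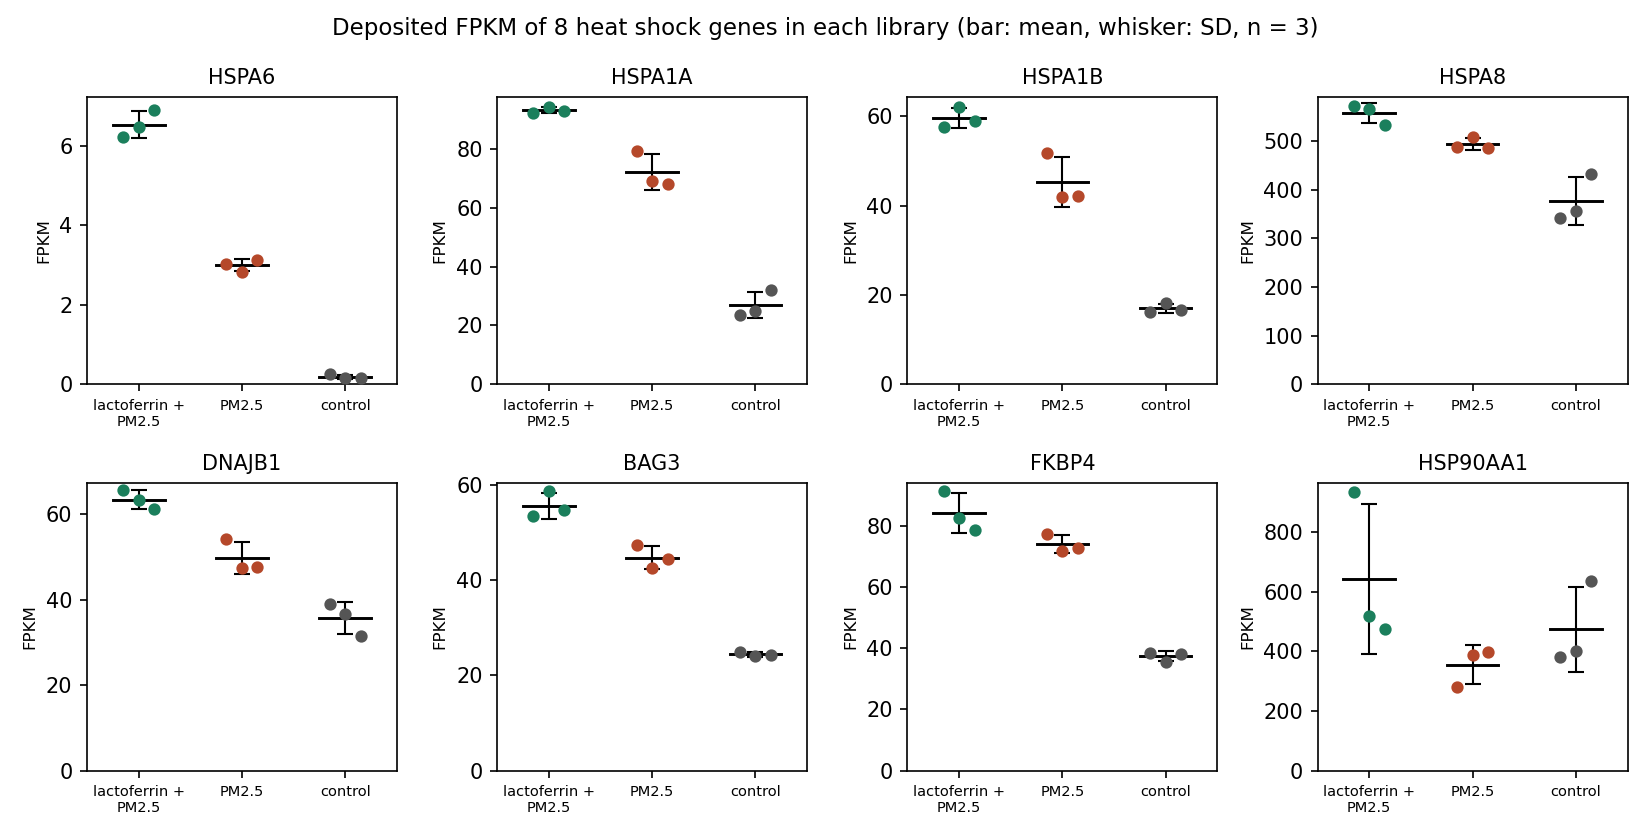
FPKM (y axis, from 0, each panel with its own scale) of 8 members in the 3 groups, lactoferrin plus PM2.5, PM2.5 and control; points are libraries, the horizontal bar is the mean and the whisker the SD (n = 3). HSPA6, HSPA1A, HSPA1B, HSPA8, DNAJB1 and BAG3 show 3 separated groups, FKBP4 of both treated groups lies above 71.7 FPKM, and HSP90AA1 ranges from 477 to 934 FPKM within the lactoferrin plus PM2.5 group.

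HSP110 proteins open the nucleotide pocket of HSP70 so that it can release its client. HSPH1, the heat-inducible member, had 63.7, 53.2 and 58.0 FPKM in lactoferrin plus PM2.5, 40.0, 53.4 and 51.6 FPKM in PM2.5, and 26.3, 29.3 and 42.4 FPKM in control libraries. Control replicate 3 reached above the lowest PM2.5 library. HSPH1 rose in lactoferrin plus PM2.5 against control (log2 difference 0.82 ± 0.19, limma adjusted p = 0.00891), and PM2.5 against control gave 0.53 ± 0.19 (limma adjusted p = 0.0570). HSPA4 and HSPA4L were called in no comparison, with log2 differences of 0.39 and 0.45 in lactoferrin plus PM2.5 against control and limma adjusted p of 0.0666 and 0.0733.

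The mitochondrial chaperones moved less evenly. HSPA9, the HSP70 of the mitochondrial matrix that also drives protein import, had 76.0, 71.2 and 71.1 FPKM in lactoferrin plus PM2.5, 64.1, 66.3 and 66.4 FPKM in PM2.5, and 36.7, 38.05 and 50.5 FPKM in control libraries. All 3 groups were separated, and HSPA9 rose in both treated groups against control, by log2 differences of 0.77 ± 0.13 in lactoferrin plus PM2.5 (limma adjusted p = 0.00196) and 0.61 ± 0.13 in PM2.5 (limma adjusted p = 0.00717). HSPD1 and HSPE1, which form the HSP60 chamber and its HSP10 lid, are a divergent gene pair. HSPD1 rose in lactoferrin plus PM2.5 against control (log2 difference 0.63 ± 0.16, limma adjusted p = 0.0117), while HSPE1 was called in none of the 3 comparisons. HSPE1 read 67.1, 49.98 and 43.8 FPKM in lactoferrin plus PM2.5, 47.2, 42.2 and 37.4 FPKM in PM2.5, and 41.5, 36.8 and 36.2 FPKM in control libraries, with replicate 1 the highest of each group. It shares 52.9% of its windows with other genes, pseudogenes among them.

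HSP90 matures kinases and steroid receptors. HSP90AA1, the isoform regarded as stress-inducible, did not move with the inducible HSP70 genes against control, and its groups overlapped for both comparisons against control. It had 934, 520 and 477 FPKM in lactoferrin plus PM2.5, 281, 387 and 399 FPKM in PM2.5, and 382, 402 and 638 FPKM in control libraries. The lowest lactoferrin plus PM2.5 library was above the highest PM2.5 library. The log2 difference of lactoferrin plus PM2.5 was 0.81 ± 0.30 from PM2.5 (limma adjusted p = 0.382) and 0.37 ± 0.30 from control (limma adjusted p = 0.358), and that of PM2.5 from control was -0.44 ± 0.30 (limma adjusted p = 0.289). Its high libraries were the ones that stood apart over all genes, and without replicate 1 of lactoferrin plus PM2.5 the difference against PM2.5 was 0.49.

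HSP90AB1, the constitutive isoform, was more even, with 974.9, 919.5 and 911 FPKM in lactoferrin plus PM2.5, 841, 884 and 884 FPKM in PM2.5, and 651, 656 and 746 FPKM in control libraries. It rose in lactoferrin plus PM2.5 against control (log2 difference 0.41 ± 0.11, limma adjusted p = 0.0174), and PM2.5 against control gave 0.30 ± 0.11 (limma adjusted p = 0.0657). The ratio of HSP90AA1 to HSP90AB1 in FPKM was 0.958, 0.565 and 0.524 in lactoferrin plus PM2.5, 0.335, 0.438 and 0.452 in PM2.5, and 0.587, 0.613 and 0.855 in control libraries. The PM2.5 ratios lay below those of all other libraries, and lactoferrin plus PM2.5 overlapped control.

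The HSP90 co-chaperones were more uniform than HSP90 itself. FKBP4, an immunophilin of steroid receptor complexes, had 91.2, 82.5 and 78.5 FPKM in lactoferrin plus PM2.5, 77.3, 71.8 and 72.7 FPKM in PM2.5, and 38.2, 35.5 and 38.2 FPKM in control libraries. Both treated groups exceeded every control library, with log2 differences from control of 1.12 ± 0.097 in lactoferrin plus PM2.5 (limma adjusted p = 3.27e-05) and 0.93 ± 0.097 in PM2.5 (limma adjusted p = 0.000135). STIP1, the adaptor that hands clients from HSP70 to HSP90, had 103, 95.9 and 86.2 FPKM in lactoferrin plus PM2.5, 80.6, 78.8 and 80.0 FPKM in PM2.5, and 50.8, 49.3 and 56.0 FPKM in control libraries. It was called higher in both comparisons against control (log2 differences 0.82 and 0.57).

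AHSA1, which activates the HSP90 ATPase, and PTGES3, the p23 protein that stabilizes closed HSP90, rose likewise, by log2 differences of 0.71 and 0.70 in lactoferrin plus PM2.5 and of 0.48 and 0.52 in PM2.5 against control (limma adjusted p between 0.000799 and 0.0109). CHORDC1, an HSP90-binding protein whose window holds the 3-unit motif, rose in lactoferrin plus PM2.5 against control (log2 difference 0.50, limma adjusted p = 0.0237) and not in PM2.5 against control (0.16, limma adjusted p = 0.442). ST13, an HSP70-interacting partner of STIP1, was called in no comparison. Of the 8 genes in the HSP90 group, 6 rose in lactoferrin plus PM2.5 and 4 in PM2.5 relative to control, where 20.4% and 18.7% of all genes did. Between lactoferrin plus PM2.5 and PM2.5 limma called 0, with 3 at an unadjusted p under 0.05 (share of all genes not worked out).

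**Figure D3:**
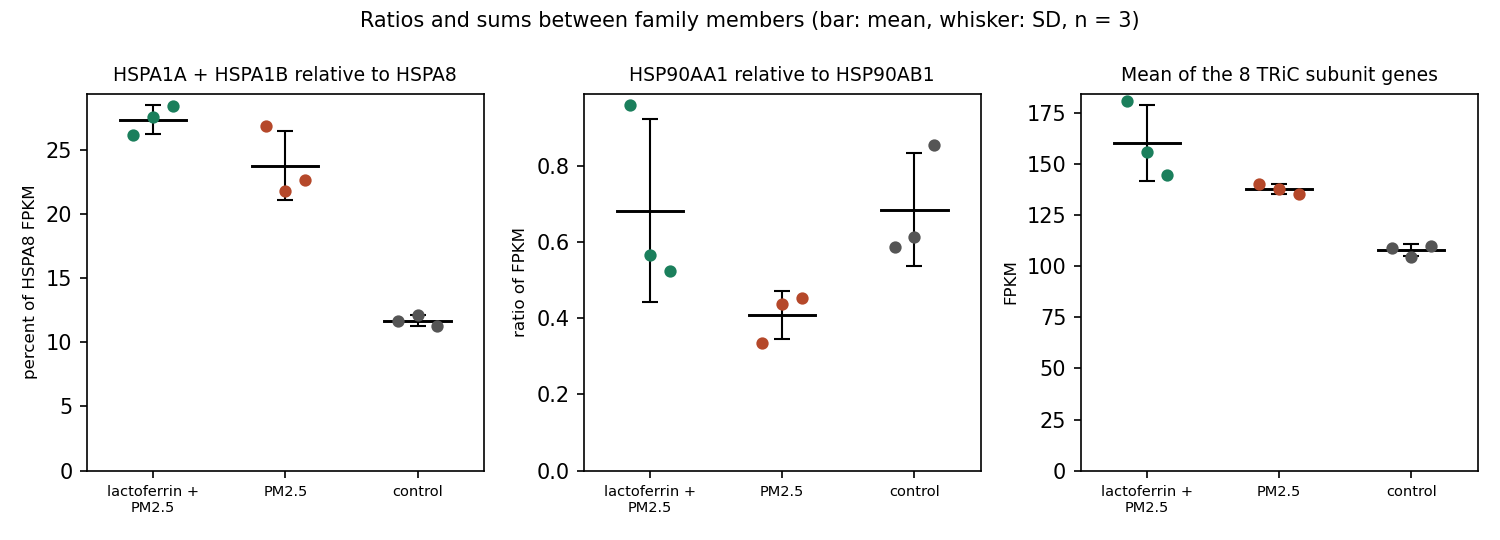
Sum of HSPA1A and HSPA1B as a percentage of HSPA8 FPKM (left), ratio of HSP90AA1 to HSP90AB1 FPKM (middle) and mean FPKM of the 8 TRiC subunit genes (right) in each library; bars are means and whiskers SD (n = 3). The inducible HSP70 share is 27.4% in lactoferrin plus PM2.5, 23.8% in PM2.5 and 11.7% in control, while the HSP90 ratio is lowest in the PM2.5 libraries.

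None of the 3 small heat shock protein genes, whose products hold unfolded proteins without ATP, was called higher in any comparison. HSPB1, the HSP27 protein, was abundant at 440, 388 and 310 FPKM in lactoferrin plus PM2.5, 375, 302 and 308 FPKM in PM2.5, and 483, 397 and 389 FPKM in control libraries. All PM2.5 libraries lay below all control libraries, with a log2 difference of -0.41 ± 0.17 that was not called (limma adjusted p = 0.0822). CRYAB, alpha-B crystallin, had 20.6, 14.97 and 14.8 FPKM in lactoferrin plus PM2.5, 16.3, 15.2 and 15.3 FPKM in PM2.5, and 22.0, 19.1 and 18.9 FPKM in control libraries. It was the one member that fell with PM2.5 against control (log2 difference -0.39 ± 0.14, limma adjusted p = 0.0496), a call lost when any control or PM2.5 library was left out and under other scalings. CRYAB overlaps HSPB2 on the opposite strand, and the strand setting of the counting is not given in the sources used here. HSPB8, the partner of BAG3 in selective autophagy, had 40.3, 39.1 and 39.7 FPKM in lactoferrin plus PM2.5, 37.3, 37.8 and 38.5 FPKM in PM2.5, and 36.9, 37.0 and 34.9 FPKM in control libraries. Its 3 groups were separated, but none of its log2 differences was called: 0.08 between lactoferrin plus PM2.5 and PM2.5, 0.02 between PM2.5 and control, and 0.09 between lactoferrin plus PM2.5 and control. In lactoferrin plus PM2.5 against PM2.5, all 3 small heat shock protein genes had positive log2 differences, of 0.08 to 0.21.

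Among the J-domain proteins, DNAJB1, the classical HSP40, had 65.7, 63.2 and 61.2 FPKM in lactoferrin plus PM2.5, 54.1, 47.5 and 47.6 FPKM in PM2.5, and 38.9, 36.7 and 31.6 FPKM in control libraries. No pair of groups overlapped. DNAJB1 rose against control in lactoferrin plus PM2.5 (log2 difference 0.79 ± 0.096, limma adjusted p = 0.000275) and in PM2.5 (0.43 ± 0.096, limma adjusted p = 0.00797), while lactoferrin plus PM2.5 against PM2.5 gave 0.36 ± 0.096 (limma adjusted p = 0.299). DNAJB6, known to suppress polyglutamine aggregation, had 16.2, 14.3 and 13.7 FPKM in lactoferrin plus PM2.5, 13.2, 13.9 and 13.4 FPKM in PM2.5, and 9.04, 8.96 and 7.96 FPKM in control libraries. It too rose in both treated groups against control, by 0.70 and 0.57 on the log2 scale.

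DNAJA1, a farnesylated HSP40, had 183, 147 and 141 FPKM in lactoferrin plus PM2.5, 115, 121 and 118 FPKM in PM2.5, and 94.3, 91.1 and 118 FPKM in control libraries. It rose in lactoferrin plus PM2.5 against control (log2 difference 0.60, limma adjusted p = 0.0119), as did its relative DNAJA2 (0.36, limma adjusted p = 0.0232). DNAJB2 and DNAJB4 were called in no comparison, with log2 differences between -0.17 and 0.15. DNAJA4 did not pass the filter, at 0.105, 0.168 and 0.135 FPKM in lactoferrin plus PM2.5, 0.0652, 0.0930 and 0.146 FPKM in PM2.5, and 0.0297, 0.0275 and 0.0087 FPKM in control libraries, and was not tested.

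BAG3, which couples HSP70 to selective autophagy, was the more responsive BAG gene. It had 53.4, 58.7 and 54.8 FPKM in lactoferrin plus PM2.5, 47.3, 42.5 and 44.4 FPKM in PM2.5, and 24.96, 23.96 and 24.25 FPKM in control libraries. The groups were again fully separated. BAG3 rose against control by log2 differences of 1.14 ± 0.080 in lactoferrin plus PM2.5 (limma adjusted p = 9.64e-06) and 0.81 ± 0.080 in PM2.5 (limma adjusted p = 9.01e-05), and lactoferrin plus PM2.5 against PM2.5 gave 0.32 ± 0.080 (limma adjusted p = 0.284). BAG1, which links HSP70 to the proteasome, stayed between 1.84 and 2.80 FPKM and was called in no comparison.

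The 2 heat shock factor genes differed by 0.39 and 0.24 on the log2 scale between lactoferrin plus PM2.5 and control, below the members' median of 0.50. HSF1 had 16.5, 17.5 and 15.1 FPKM in lactoferrin plus PM2.5, 16.7, 14.5 and 15.2 FPKM in PM2.5, and 13.7, 12.7 and 10.02 FPKM in control libraries, so both treated groups lay above control. HSF1 was called in lactoferrin plus PM2.5 against control (log2 difference 0.39 ± 0.11, limma adjusted p = 0.0241) and not in PM2.5 against control (0.30 ± 0.11, limma adjusted p = 0.0671). HSF2, a second factor that can join HSF1 on DNA, rose by 0.24 ± 0.075 in lactoferrin plus PM2.5 against control (limma adjusted p = 0.0310). The activity of HSF1 is set largely by its protein state, which RNA levels do not measure.

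TRiC subunit genes were higher by a small step. CCT3 had 227, 198 and 182 FPKM in lactoferrin plus PM2.5, 177, 175 and 177 FPKM in PM2.5, and 141, 137 and 128 FPKM in control libraries. All 4 listed subunits, TCP1, CCT2, CCT3 and CCT5, rose in lactoferrin plus PM2.5 against control, by log2 differences of 0.46 to 0.54, where 20.4% of all genes were higher. TCP1 and CCT3 rose in PM2.5 against control, by 0.33 each (limma adjusted p = 0.0243 and 0.0344), where 18.7% of all genes were higher. Of the other subunits, CCT4 and CCT6A were called higher in both comparisons against control. CCT7 and CCT8 were called in neither (limma adjusted p = 0.0545 and 0.0594 in lactoferrin plus PM2.5 against control). The mean over all 8 TRiC genes, including CCT4, CCT6A, CCT7 and CCT8, was 161 ± 18.6 FPKM in lactoferrin plus PM2.5, 138 ± 2.37 FPKM in PM2.5 and 108 ± 3.06 FPKM in control (SD, n = 3 each). Log2 differences of the 8 genes were positive in each comparison, where 50.3% to 51% of all genes were positive. They spanned 0.36 to 0.79 in lactoferrin plus PM2.5 against control. CCT5 shares 49.8% of its windows with other genes, an antisense gene first among them.

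**Figure D4:**
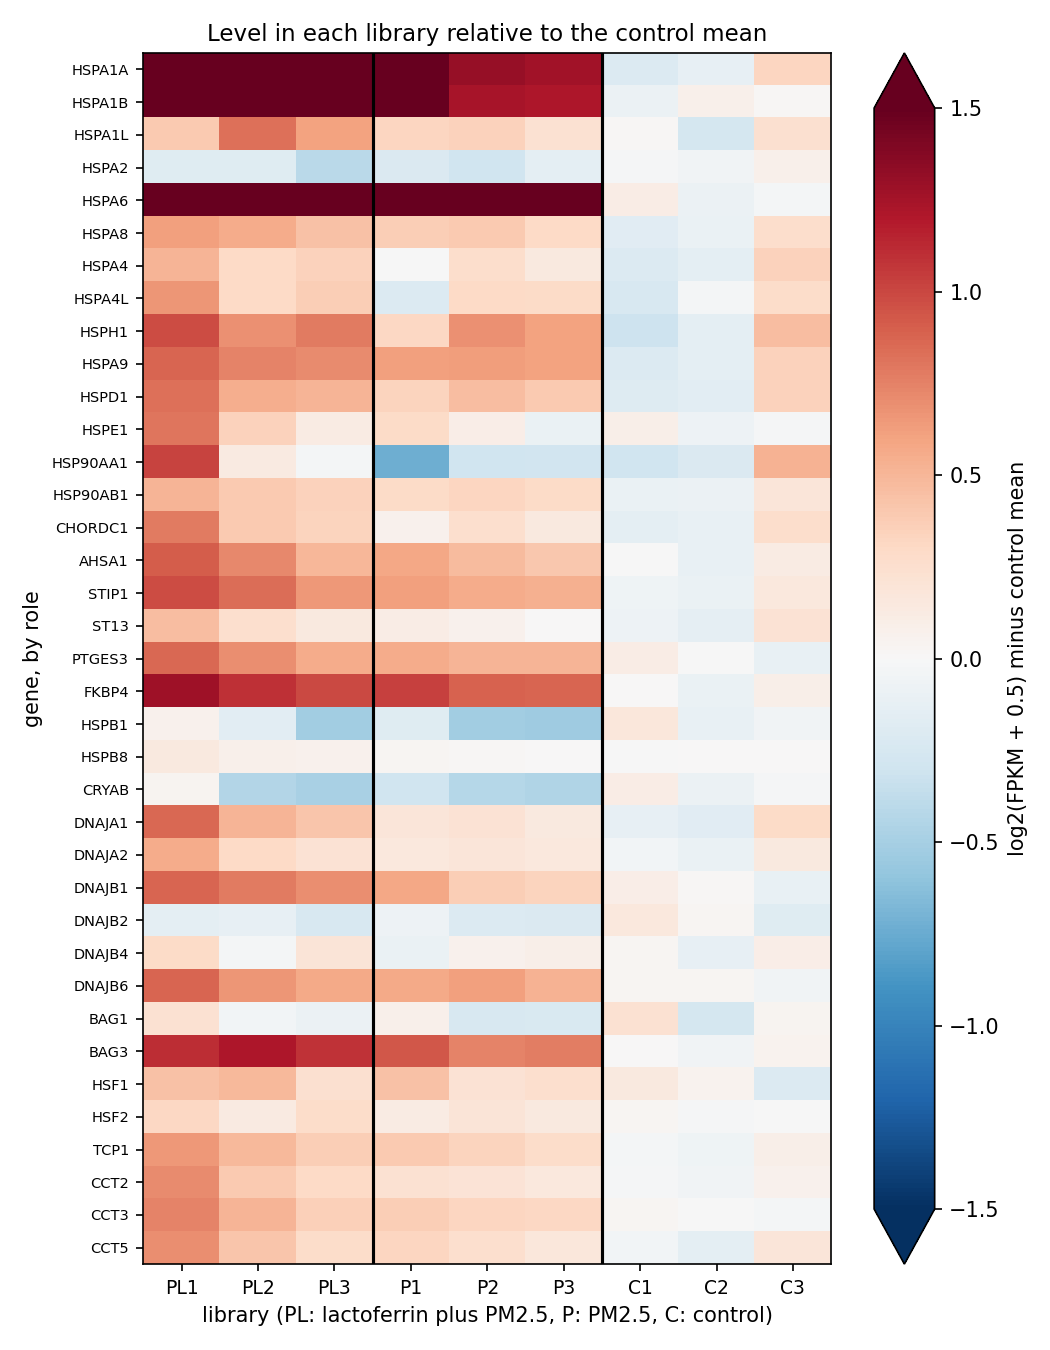
Difference of log2(FPKM + 0.5), after scaling, from the control mean (colour) for the 37 tested members (rows, by role) in the 9 libraries (columns; PL lactoferrin plus PM2.5, P PM2.5, C control, with replicate numbers). The colour scale ends at 1.5 in either direction, and replicate 1 of lactoferrin plus PM2.5 is the darkest column of its group while control replicate 3 is the darkest of the controls.

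Library by library, the median over the 37 members stood 0.71, 0.48 and 0.35 above the control mean on the log2 scale in lactoferrin plus PM2.5 replicates 1, 2 and 3, and 0.30, 0.30 and 0.25 above it in the PM2.5 replicates. The control libraries were at -0.01, -0.09 and 0.09. Within the lactoferrin plus PM2.5 group the libraries thus differed among themselves by more than the PM2.5 libraries did. On the scaled values, replicate 2 of that group was highest for 5 members, HSPA1B, HSPA1L, BAG3, HSF1 and DNAJB2, against 22.6% of all genes. Replicate 3 was highest for 1 member, HSPA6, against 36.6% of all genes. Control replicate 3 was the highest control for 23 of 37 members, against 41.7% of all genes. Without it the PM2.5 libraries lay above control for 28 members (75.7%, against 33.5% of all genes), a count that leaving a library out can only keep or raise. The members' median exon length was 4245 bases, against 4299 for all genes tested. With each library's trend on gene length removed, all 14 members called in PM2.5 against control and 25 of the 26 called in lactoferrin plus PM2.5 against control kept their calls, HSF2 being the exception, and HSPA6 kept its call against PM2.5.

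Several calls near the threshold depended on single libraries. In PM2.5 against control, CCT3 (limma adjusted p of 0.0661 to 0.102) and CRYAB (0.0628 to 0.136) lost their calls without any 1 of the PM2.5 or control libraries or without lactoferrin plus PM2.5 replicate 2, and TCP1 (0.0501 to 0.0861) without PM2.5 replicates 1, 2 or 3 or control replicates 1 or 2. Without control replicate 3, HSPA8, HSPH1, HSPD1 and HSP90AB1 were called higher and DNAJB2 lower (limma adjusted p of 0.0052 to 0.0466). Calls were also gained by HSPA8, HSP90AB1 and CCT2 without lactoferrin plus PM2.5 replicate 1, by HSPB1 without its replicate 3, and by HSF1 without control replicate 1 (0.0407 to 0.0484).

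In lactoferrin plus PM2.5 against control, HSPA2 lost its call without any 1 library other than lactoferrin plus PM2.5 replicate 1, and HSF2 without any 1 library other than lactoferrin plus PM2.5 replicate 2 or PM2.5 replicate 1 (limma adjusted p of 0.0525 to 0.13 for both genes). HSF1 lost it without control replicates 2 or 3 or lactoferrin plus PM2.5 replicates 1 or 2, and CHORDC1 without control replicates 1 or 2 or lactoferrin plus PM2.5 replicate 1. HSP90AB1 and DNAJA2 lost it without control replicates 1 or 2 or lactoferrin plus PM2.5 replicate 2, HSPA1L without control replicate 2 or lactoferrin plus PM2.5 replicate 2, and CCT5 without control replicates 1 or 2. The adjusted p of these 6 genes then ran from 0.0502 to 0.103. Without control replicate 3, HSPA4, HSPA4L and ST13 were called higher and DNAJB2 lower, HSPA4L was also called without PM2.5 replicate 1, HSPE1 was called higher without lactoferrin plus PM2.5 replicate 3, and CRYAB was called lower without its replicate 1 (limma adjusted p of 0.00369 to 0.0446).

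Of 87 further genes of the pathway, 79 passed the filter. Limma called 20 higher (25.3%, against 18.7% of all genes) and 6 lower in PM2.5 against control, where 16.4% of all genes were lower. It called 25 higher (31.6%, against 20.4% of all genes) and 6 lower in lactoferrin plus PM2.5 against control, where 18.2% of all genes were lower. Between lactoferrin plus PM2.5 and PM2.5 it called 0 of 79, with 12 at an unadjusted p under 0.05 (share of all genes not worked out). Mitochondrial chaperones and proteases beyond the listed 3 had 7 of 14 genes higher and 0 lower in PM2.5 against control, where 18.7% of all genes were higher. Prefoldin and the other TRiC subunits had 2 of 14 higher and 1 lower, and the other cytosolic HSP70, HSP90, J-domain and BAG genes had 6 of 29 higher and 4 lower. Regulators of heat shock factors and non-chaperone HSF1 targets had 5 of 22 higher and 1 lower, and these last 3 lists, at 14.3%, 20.7% and 22.7% higher, were near the share of all genes. None of the 7 other small heat shock protein genes was tested.

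PPID, a cyclophilin that binds HSP90, had 47.5, 41.2 and 40.7 FPKM in lactoferrin plus PM2.5, 36.6, 36.6 and 35.8 FPKM in PM2.5, and 18.1, 17.2 and 23.5 FPKM in control libraries. It rose in lactoferrin plus PM2.5 against control by a log2 difference of 1.09 (limma adjusted p = 0.000334), and TOMM34, a co-chaperone of HSP70 and HSP90, by 0.85 (limma adjusted p = 0.000142). ZFAND2A, a heat- and arsenite-inducible zinc finger gene, had 9.55, 7.74 and 8.11 FPKM in lactoferrin plus PM2.5, 5.74, 5.86 and 5.23 FPKM in PM2.5, and 4.09, 3.15 and 3.37 FPKM in control libraries. Its groups did not overlap, and lactoferrin plus PM2.5 against control gave 1.12 ± 0.12 (limma adjusted p = 0.000122). In PM2.5 against control, GRPEL2, an exchange factor for mitochondrial HSP70, rose by 0.67 (limma adjusted p = 0.000257) and FBXO30, an F-box protein gene, by 0.68 (limma adjusted p = 0.000526). MYBL1, a MYB-family transcription factor gene, fell by 1.82 in lactoferrin plus PM2.5 and by 1.55 in PM2.5 against control on the log2 scale (limma adjusted p = 3.73e-05 and 0.000131).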

How the data were processed

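RNA-seq of 9 HK-2 libraries was analysed, 3 each for lactoferrin plus PM2.5, PM2.5 and control, grouped as labelled. The authors list HISAT2 2.1.0, GRCh38, Trimmomatic 0.38, featureCounts 1.6.0, DESeq2 1.22.1, MultiQC, FastQC and CASAVA, per the submitters' processing notes, which state no order or setting. The annotation release and strand setting were not stated. The authors deposited FPKM values for 58884 Ensembl identifiers; the unit was read from the values. Multiplied by union exon length in GENCODE 29 (58611 identifiers matched), 86.0% to 87.3% of values up to 200 reads were whole multiples of one step, within 0.05, and the steps gave totals of 15313451 to 18820465 per library.

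The design allowed a count test, but the files hold FPKM, so limma 3.58.1 (R 4.3.3) was run on log2(FPKM + 0.5) after TMM scaling (factors 0.943 to 1.04), over 14454 genes with at least 0.5 FPKM in at least 3 libraries. All 9 libraries entered one fit of 3 group means with trended, robust variances; p-values were adjusted by Benjamini-Hochberg over all genes and called under 0.05. The code was tested on simulated data. The 38 members, the pathway lists and the marker lists were chosen with earlier results of these data known. All members were named; of the other pathway genes, the text names the 4 called genes with the smallest adjusted p in each comparison. Replicate numbers are shared between groups, but same-numbered libraries correlated between -0.068 and 0.18 (deviations from group means), so they were not treated as pairs. Alternatives covered scaling, pseudocount, filter, limma-voom on rebuilt fragments, fits of 6 libraries, a replicate block, summed paralogs and libraries left out; removal of each library's trend on gene length was added after seeing the data. Shared sequence was counted in 50-base windows of the longest transcripts.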

Additional observations from a re-analysis of the deposited data

How the results depend on the processing

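No member's fold change reversed sign with a call under any alternative run. In PM2.5 against control, the count of members called lower was 0 with unscaled values, upper-quartile factors or no filter. It was 2 with limma-voom, with only the 6 libraries compared, with the replicate block or without control replicate 3 and lactoferrin plus PM2.5 replicate 1 together. It was 3 with the length trend removed. With those 2 libraries left out, 24 members were called higher, against 13, and the share of all genes called in that setting is not given here. In that setting the PM2.5 libraries lay wholly above control for 75.7% of members and 33.5% of all genes, against 54.1% and 28.2% with all libraries. Shares of this kind cannot fall when libraries are left out. In lactoferrin plus PM2.5 against control, members called lower were 0 with unscaled values, upper-quartile factors, no filter, limma-voom or 6 libraries, and 2 with the length trend removed. In lactoferrin plus PM2.5 against PM2.5, genes called higher over the whole table were 5 with a pseudocount of 1, limma-voom or the replicate block, 1 with 6 libraries and 7 with the length trend removed, against 3; genes called lower were 11 with limma-voom, 1 with 6 libraries, 8 with the replicate block, 9 without the 2 libraries and 10 with the length trend removed, against 4. HSPA6 was called in each of these, and the replicate block ended no call in the first comparison and only that of HSPA2 against control.

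Leaving out 1 library in turn, PM2.5 against control gave 11 to 16 members higher and 0 to 2 lower, a members' median of 0.17 to 0.32, and 1963 to 3070 genes higher and 1681 to 2794 lower. Lactoferrin plus PM2.5 against PM2.5 gave 0 to 1 members higher, a median of 0.12 to 0.29, and 0 to 3 genes higher and 0 to 4 lower. Lactoferrin plus PM2.5 against control gave 18 to 26 members higher and 0 to 2 lower, a median of 0.36 to 0.58, and 2165 to 2833 genes higher and 1894 to 2603 lower. The standard error of a member's log2 fold change ran from 0.065 (HSPB8) to 0.30 (HSP90AA1), which sets the size these libraries resolve.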

Other observations

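The summed FPKM of all 38 members was 5129 ± 588 in lactoferrin plus PM2.5, 4267 ± 66.4 in PM2.5 and 3602 ± 316 in control (SD, n = 3 each). DNAJC2, a ribosome-associated J-domain gene chosen here after its values were seen, had 5.89, 2.57 and 2.37 FPKM in lactoferrin plus PM2.5, 1.47, 1.70 and 1.47 FPKM in PM2.5, and 4.34, 4.75 and 8.20 FPKM in control libraries. As for HSP90AA1, its highest libraries were lactoferrin plus PM2.5 replicate 1 and control replicate 3, and its PM2.5 libraries were all below its control libraries. The ratio of HSPA1A to HSPA1B was 1.564 ± 0.043 in lactoferrin plus PM2.5, 1.597 ± 0.057 in PM2.5 and 1.591 ± 0.31 in control (SD, n = 3 each).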
